A study of Arabidopsis thaliana with 6 samples.

Results

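The genes described here were those of the Arabidopsis root that were listed at 0 in control roots and reached a mean of at least 4 normalized reads after treatment with auxin (indole-3-acetic acid, IAA). Both deposited group means chose them, so the control value of 0 and the height of the IAA mean are descriptions of the choice and carry no test. Of 20423 genes in the table, 20215 were nuclear, and 121 of these met both conditions, which was 0.599% of the nuclear genes. After 5 of them were left out by name, 116 genes remained. All 116 had a match in the RefSeq annotation of TAIR10.1, where all were protein coding and 44 carried a gene symbol.

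Roots of wild type Col-0 seedlings were collected 3 days after germination, after 6 h in liquid medium with 1 µM IAA or without it. The labels name 3 libraries per group, each from pooled roots of many seedlings, sequenced from RNA depleted of ribosomal RNA on the SOLiD platform. The measurements in the table are a mean per group for each gene, with 0 columns per library. The authors' own comparison columns were not used, and no SD, p-value or test stands behind any value below. The means are of whole roots, in which fewer cells of a type and less RNA per cell cannot be told apart.

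Auxin enters the nucleus, brings the TIR1/AFB receptors together with Aux/IAA repressors, and so leads to the loss of these repressors and to transcription by the auxin response factors. In the root it starts lateral root founder cells, shapes the vascular strands and the meristem, and holds back cell elongation.

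A 0 in such a table means few reads rather than a known absence. Every distinct mean under 8 in the IAA column, 215 of 215, was a whole-number sum of 2 steps, 0.3665 and 0.4256, within the rounding of the table to 2 decimals. In the control column 96 of 96 distinct means were sums of 2 steps, 0.5892 and 0.6344. Only 31.0% of all 2-decimal values under 8 were such sums for the IAA steps and 13.4% for the control steps. Each step is what 1 read in 1 library adds to the group mean, so the means needed no more than 2 steps per group, where the labels name 3 libraries. A further library whose step equals 1 of these within rounding could not be told apart, and its reads would then be counted in A or in B. The floor of 3 reads and all values per library below take 2 libraries per group. The whole reads in these 2 IAA libraries, called A and B here because nothing ties them to a replicate label, could be read back for 114 of the 116 genes, which had exactly 1 solution. A floor of 3 reads over the control group corresponds to a control mean of 1.83. Against this floor the IAA means were at least 2.19-fold to at least 18.4-fold higher, with a median bound of 3.36. The bounds allow for counting error in the control value only, and not for that of the IAA mean.

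The genes were low. Their IAA means ran from 4.02 to 33.76, with a median of 6.16 and quartiles of 4.61 and 8.35, while the median IAA mean of all nuclear genes was 11.4. The highest gene stood at percentile 76.6 of the nuclear IAA means. There were 40 genes under 5, 23 of at least 10 and 2 of at least 20, and all 116 together held 0.109% of the summed nuclear IAA means. In the 114 genes with 1 solution the reads over both libraries numbered 10 to 45 with a median of 15, and 33 had at least 20. Per kilobase of exon the IAA mean ranged from 1.17 to 35.6, with a median of 3.79.

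The promoters were read next, since auxin response factors bind the word TGTC, also in the longer forms TGTCTC and TGTCGG. The window ran from 250 bases before to 50 bases after the annotated start of transcription, and both strands were searched in the TAIR10.1 genome. TGTCTC was found in 19 of 116 windows, 16.4% (95% Wilson interval 10.7% to 24.2%), and in 14.2% of the windows of all 27444 protein-coding genes. TGTCGG was found in 4 windows, 3.45% (1.35% to 8.53%), against 5.12% of all. The bare word TGTC, which both longer forms contain, was found in 83.6% against 81.5%. The share of genes with TGTCTC was thus near that of all genes, and a match is only a match of letters. The stretches below carry the matches in 6 genes whose products act on hormones, growth or transcription. They are printed 5′ to 3′ on the strand of the gene, with the match or its reverse complement in capitals, and all lie before the start of transcription.
GA2OX8, chr4:11302628-11302681, plus strand, 24 bases before the start: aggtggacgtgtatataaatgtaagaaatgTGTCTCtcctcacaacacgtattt
CYP94C1, chr2:11809190-11809255, plus strand, 59 bases before the start: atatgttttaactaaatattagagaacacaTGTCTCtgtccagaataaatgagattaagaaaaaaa
ERF2, chr5:19173055-19173120, minus strand, 134 bases before the start: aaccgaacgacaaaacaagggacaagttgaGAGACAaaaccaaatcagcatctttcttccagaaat
ATXR6, chr5:8297239-8297304, minus strand, 115 bases before the start: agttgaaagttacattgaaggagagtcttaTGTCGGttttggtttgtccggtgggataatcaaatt
PSK3, chr3:16292465-16292505, minus strand, 11 bases before the start: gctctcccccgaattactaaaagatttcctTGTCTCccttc
PSK3, chr3:16292586-16292651, minus strand, 157 bases before the start: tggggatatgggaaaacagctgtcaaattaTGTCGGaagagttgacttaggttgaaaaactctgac
AT3G10470, chr3:3259959-3260024, plus strand, 152 bases before the start: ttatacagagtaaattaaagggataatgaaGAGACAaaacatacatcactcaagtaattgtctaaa
AT3G10470, chr3:3260022-3260087, plus strand, 89 bases before the start: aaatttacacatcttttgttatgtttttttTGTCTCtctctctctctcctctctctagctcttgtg
AT3G10470, chr3:3260096-3260140, plus strand, 15 bases before the start: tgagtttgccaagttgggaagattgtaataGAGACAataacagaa

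In these stretches GA2OX8 and CYP94C1 hold the longer word in the forward direction and ERF2 holds it reversed. PSK3 holds both longer words, and AT3G10470, a C2H2 zinc finger gene, holds TGTCTC at 3 places, at 1 of them in the forward direction. In the genes with the mirrored pattern, at 0 after IAA and at a control mean of at least 4, TGTCTC was found in 14.3% of 98 windows. In the 132 genes with a single control read and an IAA mean of at least 4 it was found in 14.4%, and TGTCGG in 9.85% (5.85% to 16.1%). TAATAT was present in 41.4% of the windows against 41.3% of all. The study reported this word as enriched in longer upstream regions, for very strongly upregulated genes and for downregulated genes. Its methods removed transcripts with a fold going to 0 or infinity, and a control mean of 0 gives no finite fold. The shares given here are therefore not a check on the study's own gene sets. As a comparison word, TATAAA was present in 47.4% against 52.1%. The median G+C content of the windows was 32.3%, and 32.0% over all genes.

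**Figure D1:**
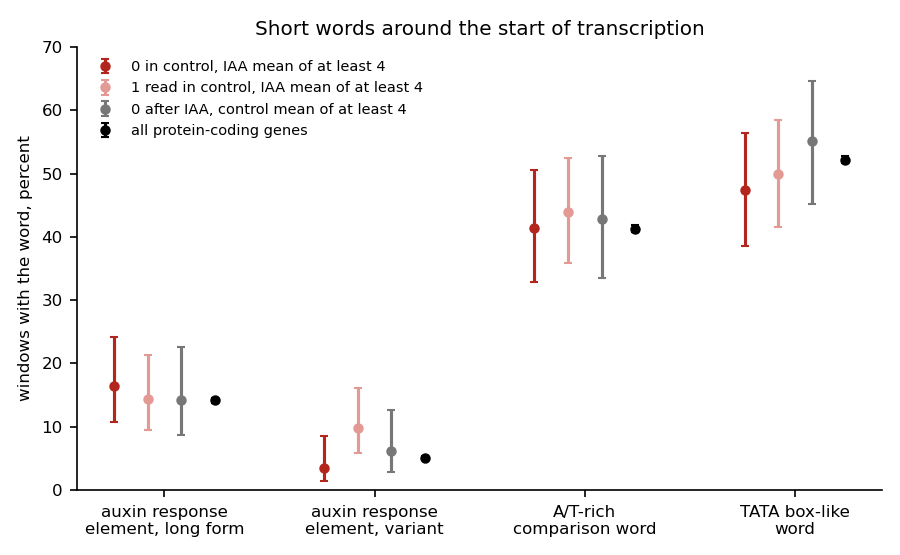
Share of promoter windows with each short word, in percent, for the genes at 0 in control, the genes with a single control read, the genes of the mirrored pattern and all protein-coding genes; points are shares and bars are 95% Wilson intervals. The 16.4% of windows with the long auxin response element stand beside 14.2% of all genes, which lies within the interval of 10.7% to 24.2%.

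Among the genes that act on hormones, the gibberellin 2-oxidases, which inactivate gibberellins, had 2 genes of this kind out of 6 in the table. Of all nuclear genes 0.599% met the rule. This family was picked after its values had been seen, and its share is not evidence of its own. GA2OX8 (chromosome 4, 11302682 to 11306770 in TAIR10.1) was listed at 7.01 after IAA, from 11 reads in library A and 7 in library B. ATGA2OX3 was listed at 4.99, from 2 and 10 reads, so that most of its reads came from 1 library. ATGA2OX1 was also at 0 in control but reached only 0.85, GA2OX6 was listed at 6.62 in control and 21.28 after IAA, GA2OX2 at 3.13 and 4.46, and GA2OX4 at 0.63 and 0.

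CCD8, the carotenoid cleavage dioxygenase that acts with CCD7 in strigolactone synthesis, was listed at 6.58 after IAA, from 11 and 6 reads. CCD7 itself was at 0.63 in control and 0.43 after IAA, a single read in each group. The later steps were higher in control than after IAA, with CYP711A1 (MAX1) at 25.2 and 8.71 and the F-box protein MAX2 at 38.57 and 19.3. The pathway, also picked after its values had been seen, therefore contributed 1 of its 5 listed genes, beside 0.599% of all nuclear genes. CCD8 was its only gene with a higher mean after IAA. CYP94C1, a P450 that oxidises the active jasmonate conjugate, was listed at 6.22, from 10 and 6 reads. Its relative CYP94B1 was at 30.36 in control and 3.11 after IAA, and CYP94B3 at 18.17 and 24.7, so the CYP94 enzymes of the table differed in direction. DALL1 (AT4G16820), a lipase related to the DAD1 enzyme of jasmonate synthesis, was listed at 7.63, from 15 and 5 reads. CYP78A10, a P450 of the CYP78A family, was listed at 9.39, from 14 and 10 reads.

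APD7 (AT5G02760), a PP2C phosphatase of clade D, was the highest gene of this group, at 14.45 from 22 and 15 reads. Clade D phosphatases dephosphorylate the plasma membrane proton pumps and are inhibited by SAUR proteins. The other 8 clade D phosphatases were all read in control, from 4.76 for AT5G66080 to 110.89 for AT3G51370. In the SAUR family 17 of 42 listed genes were at 0 in control, where 1195 of all 20215 nuclear genes were. Of these 17, and apart from the genes left out by name, only SAUR77 (AT1G17345) reached a mean of 4. It was listed at 6.7, from 9 and 8 reads, an even division between the libraries. SAUR76 (AT5G20820) was listed at 2.4 in control and 18.48 after IAA, and SAUR78 (AT1G72430) at 29.55 and 18.05.

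The secreted peptides gave 4 genes at low levels. Of 122 listed signalling peptides 3 met the rule, IDA, PSK3 and RGF4, or 2.46%, beside 0.599% of all nuclear genes. GASA6 was counted apart, as 1 of 5 listed GASA peptides, a list picked after values had been seen. IDA, the peptide that acts through the receptors HAE and HSL2 in organ shedding and in the separation of cells above an emerging lateral root, was listed at 6.88, from 6 and 11 reads. HAE was at 1.77 in control and 6.95 after IAA, HSL2 at 5.35 and 8.16, IDL5 at 0.59 and 6.7, and IDL4 at 0.59 and 4.76, the last from 13 reads in library A and 0 in library B. IDL1 went the other way, at 2.45 in control and 0 after IAA. GASA6, a cysteine-rich peptide of the gibberellin-regulated family, was listed at 6.89, from 13 and 5 reads. In the same family GASA5 was listed at 3.81 in control and 246.69 after IAA, while GASA1 was at 420.5 and 37.96. PSK3, a precursor of the growth peptide phytosulfokine, was listed at 4.21, from 8 and 3 reads, and PSK4 at 82.34 in control and 19.62 after IAA. RGF4, a root meristem growth factor precursor, was listed at 4.08, from 3 and 7 reads, and its relative RGF8 at 1.77 in control and 18.94 after IAA.

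**Figure D2:**
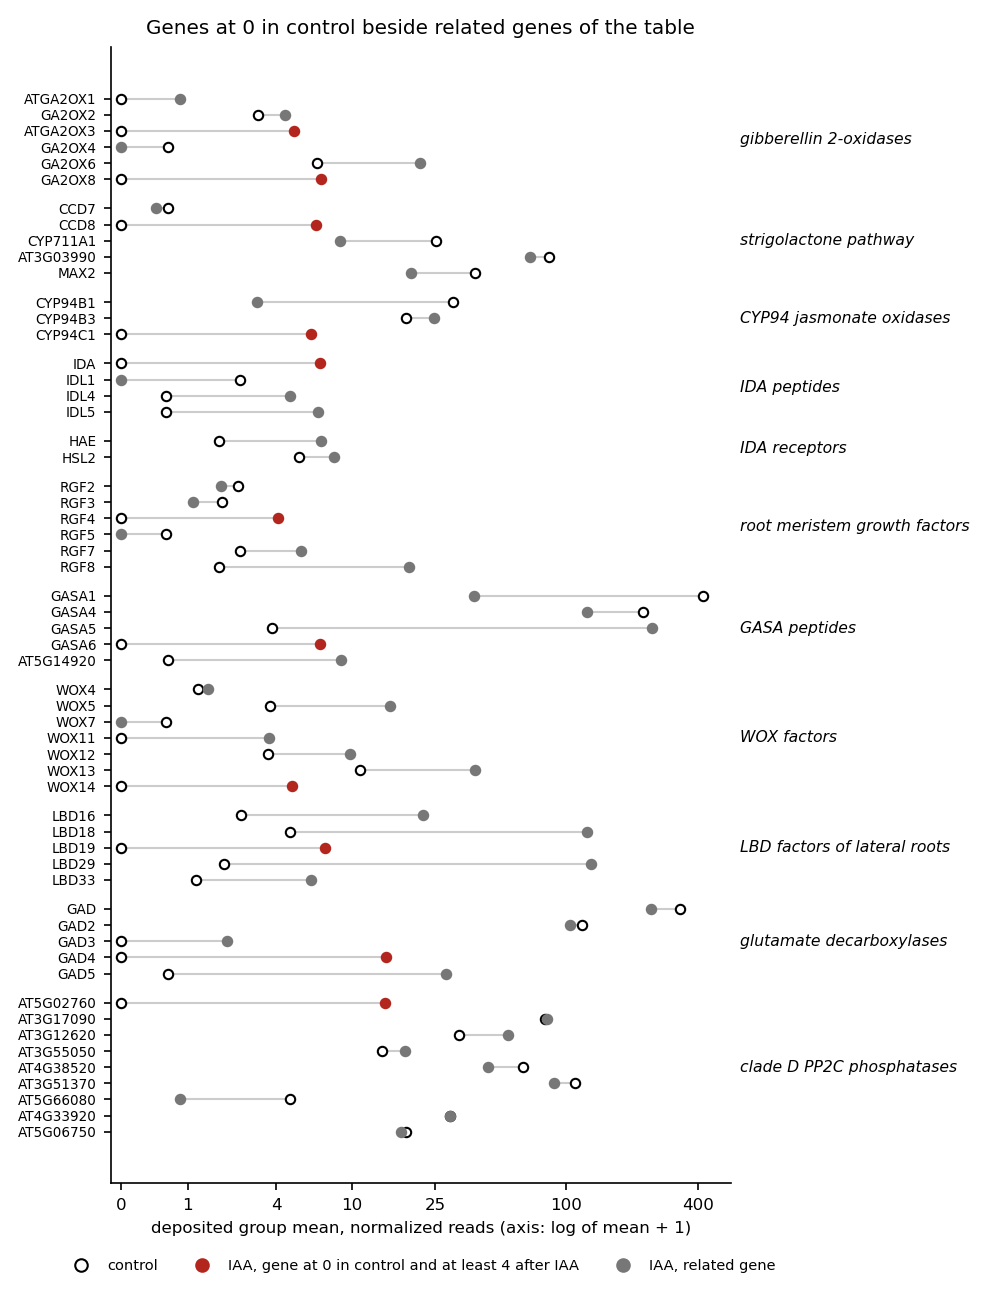
Deposited group means, in normalized reads on a logarithmic axis of the mean plus 1, of genes at 0 in control and of related genes of the table; open circles are control means, red circles the IAA means of the genes at 0 in control with an IAA mean of at least 4, and grey circles the IAA means of their relatives. LBD18 and LBD29 lie above 100 after IAA and LBD19 at 7.32, and the glutamate decarboxylase GAD4 at 14.62.

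The regulators of transcription and chromatin were 21 genes, with a median IAA mean of 4.88, the lowest median of the 8 role groups into which the genes were placed by hand. Of the LOB domain factors, several of which act in lateral root initiation, 20 were listed, 4 were at 0 in control and 2 met the rule, where 0.599% of all nuclear genes did. LBD19 was listed at 7.32, from 13 and 6 reads, and LBD40 at 4.14, from 2 and 8 reads. Of the other LOB domain factors known from lateral roots, 3 stood above them after IAA, with LBD29 at 1.9 in control and 130.12 after IAA, LBD18, the neighbour of LBD19 on chromosome 2, at 4.76 and 125.31, and LBD16 at 2.49 and 22.0. LBD33 was lower than LBD19, at 1.18 and 6.22. The 97 listed AP2/ERF factors gave 3 genes, 3.09% beside the 0.599% of all nuclear genes, of which ERF12, a repressor, was listed at 7.63, from 15 and 5 reads. ERF2, an activator of defence genes that respond to ethylene and jasmonate, was listed at 4.88, from 11 and 2 reads, and AT5G61890 at 4.33.

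ZFP2, a small C2H2 zinc finger protein, was the highest regulator, at 13.61, but its reads were divided 29 to 7. AT3G60670, a PLATZ factor, was listed at 12.92 from 19 and 14 reads, and AT5G53420, a CCT motif protein, at 12.19 from 17 and 14 reads, so in both the libraries were close to even. WRKY51, a defence regulator, was listed at 8.84, from 16 and 7 reads. The set held 3 homeodomain genes. Of 159 listed homeobox factors 2 met the rule, WOX14 and HB28, or 1.26%, beside 0.599% of all nuclear genes. PDF2 was not in that family list. WOX14, which promotes vascular cell division, was listed at 4.88, from 11 and 2 reads. PDF2, an epidermal identity factor, was listed at 5.06, from 8 and 5 reads, and its partner ATML1 at 0.59 in control and 1.47 after IAA. HB28 (ZHD7) had 11 reads in library A and 0 in library B. ANAC026 (VND5), a NAC factor of xylem vessels, had the same 11 and 0 reads and a mean of 4.03.

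ATXR6, which with ATXR5 places a methyl group on histone H3, was listed at 4.62, from 1 and 10 reads. ATXR5 was at 5.57 in control and 7.99 after IAA. OFP16 and OFP4, repressors of the OVATE family, were listed at 5.91 from 8 and 7 reads and at 4.69 from 7 and 5 reads. The family, picked after its values had been seen, had 14 listed genes, 5 of them at 0 in control, where 1195 of all 20215 nuclear genes were. The 2 that met the rule were 14.3% of it, beside 0.599% of all nuclear genes. This share is not evidence of its own. Among kinases and cell cycle genes, the protein kinase AT3G01490 was the highest, at 15.65 from 16 and 23 reads. AT5G40460, annotated as an inhibitor of cyclin-dependent kinases like SMR3, was listed at 4.56 from 2 and 9 reads. RLP26, a receptor-like protein, was listed at 9.26, the wall-associated kinase WAKL5 at 6.1 and the cysteine-rich receptor kinase CRK36 at 6.22.

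**Figure D3:**
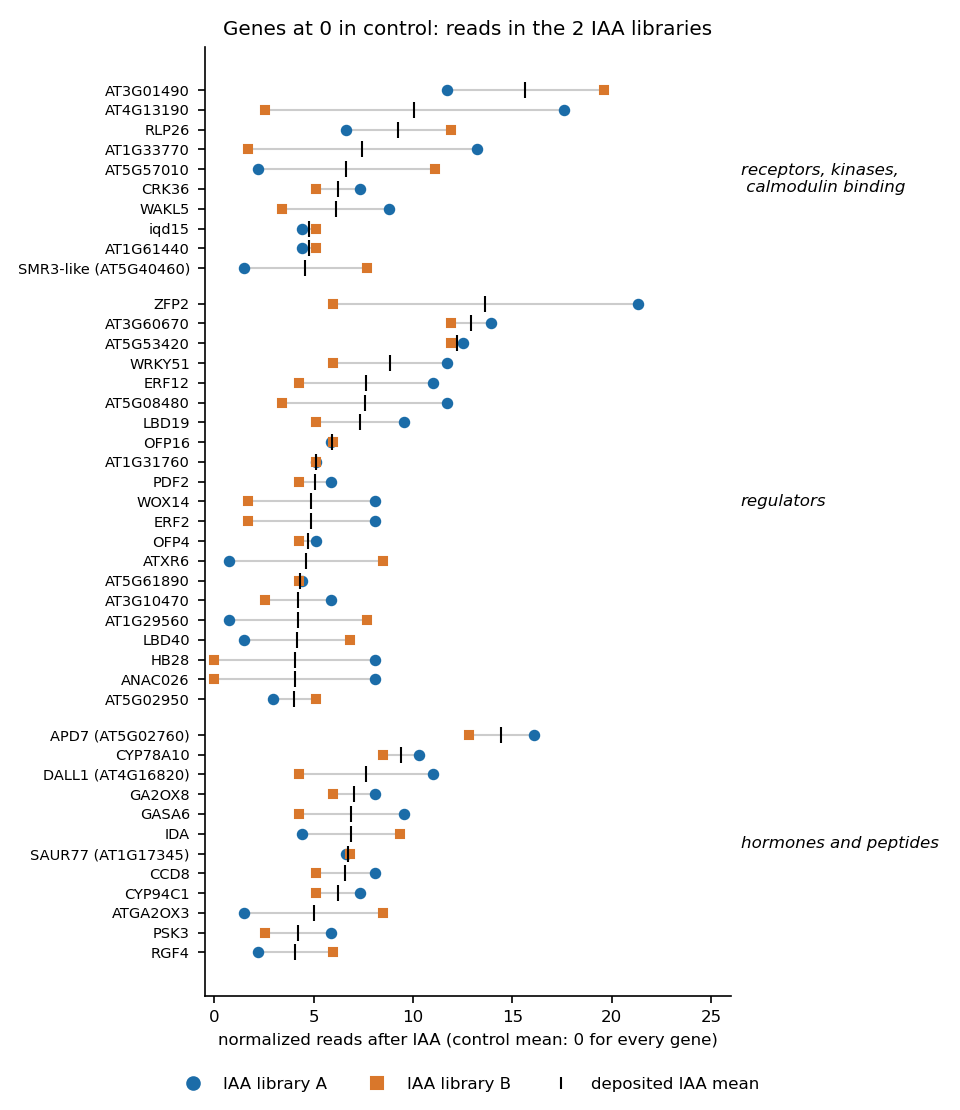
Normalized reads of 43 genes at 0 in control in the 2 IAA libraries (reads divided by the library's size factor), grouped by role; blue circles are library A, orange squares library B and black ticks the deposited IAA mean. APD7, AT3G60670, AT5G53420 and SAUR77 lie close together in both libraries, while ZFP2 and AT4G13190 are far apart, and HB28 and ANAC026 are at 0 in library B.

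The highest means of all belonged to genes of the cell surface and of protein turnover. AT5G22430 (chromosome 5, 7433790 to 7434953), a protein of the pollen Ole e 1 and extensin family, was listed at 33.76, and ATL63 (chromosome 5, 23676455 to 23678002), a RING-type ubiquitin ligase, at 30.46. For these 2 genes more than 1 division of reads was possible. For ATL63 it was 3 and 69 or 39 and 38 reads, and for AT5G22430 it was 12 and 69, 48 and 38 or 84 and 7, so their evenness between libraries is unknown. PP2-A5, a phloem lectin-like protein, had the most reads of the remaining genes, 17 and 28 at a mean of 18.15. The wall group included AT4G13210, a pectate lyase-like protein, at 9.39 from 14 and 10 reads, the germin-like protein GLP7 at 11.03 from 15 and 13 reads, and the beta-galactosidase BGAL14 at 6.22.

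Among transport and metabolism, HIPP22, a metal-binding isoprenylated protein, was listed at 15.72, from 22 and 18 reads. ALMT1, the channel that releases malate from the root under aluminium, was listed at 14.86, from 15 and 22 reads. GAD4, a glutamate decarboxylase that makes the amino acid GABA, was listed at 14.62, from 19 and 18 reads. In these genes the 2 libraries held similar numbers of reads. GAD5 was at 0.63 in control and 28.1 after IAA, GAD3 at 0 and 2.01, whereas GAD2 was at 118.23 and 104.4 and GAD (GAD1) at 330.68 and 245.22. GolS3, a galactinol synthase of cold-stressed plants, was listed at 11.19, from 5 and 22 reads, and GolS1 at 25.74 in control and 6.45 after IAA. AO, the first enzyme of NAD synthesis from aspartate, was listed at 5.3, from 4 and 9 reads, while the following enzymes QS and QPT were read in both groups, QS at 28.55 and 45.64 and QPT at 43.19 and 39.78. ALD1, an aminotransferase of the immune signal pipecolate, had 0 and 10 reads.

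The role groups held 21 regulators, 12 genes of hormones and peptides, 10 of receptors, kinases and calmodulin binding, 10 of the wall and secreted proteins, 21 of transport and metabolism, 7 of protein turnover and defence, 16 of pentatricopeptide, TPR and RNA proteins, and 19 with no clear role. The last had a median IAA mean of 5.24 and a range of 4.02 to 13.77. Among them AT1G76610, related to the water-sensing protein MIZU-KUSSEI, was listed at 13.77 from 19 and 16 reads. AT2G03850, a late embryogenesis abundant protein, was listed at 12.12 from 11 and 19 reads, and AT5G22270 (SIED1) at 11.09 from 14 and 14 reads. These 3 were divided more evenly than AT5G18320, an ARM repeat protein of the turnover group, at 14.06 from 7 and 27 reads. In the metabolism group, genes without a symbol stood near these levels, with AT3G22410, a Sec14-like lipid transfer protein, at 13.03 from 10 and 22 reads and AT5G65205, a Rossmann-fold oxidoreductase, at 12.69 from 23 and 10 reads.

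The pentatricopeptide and TPR-like proteins, most of which bind RNA in mitochondria and plastids, were the family with the most genes of this kind: 13 of 524, or 2.48%, where the share over all nuclear genes was 0.599%. None of the 524 met the mirrored rule. This family was picked after its values had been seen, and its share is not evidence of its own. Its median was 4.17 in control and 6.76 after IAA. The highest was AT4G33170, at 15.92 from 33 and 9 reads, followed by AT2G01740 at 10.37 from 19 and 8 reads and AT3G09060 at 9.62 from 10 and 14 reads. EMB1025 was listed at 5.25 and PGN at 5.97.

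Among genes with an IAA mean from 4 to 8, the reads of these genes were less evenly divided than those of other genes. Levels within this range were not matched, and 40 of these genes were under 5. The same IAA means chose the genes, so the contrast is a description and its cause was not tested. Of the 85 with an IAA mean under 8, 24.7% had at least 4 times as many normalized reads in 1 library as in the other, and 13.4% of 2646 other nuclear genes with an IAA mean from 4 to 8 did. In 4 of them, 4.71%, 1 library held 0 reads, against 0.869% of the other genes, and 1 library held at most 1 read in 11.8% against 4.08%. The 4 genes were ANAC026, HB28 and AT2G33260, a permease, with 11 and 0 reads, and ALD1 with 0 and 10. Library A held more normalized reads in 48.2% of the 114 genes with 1 solution, so neither library supplied most of them, with 1084 reads in A and 981 in B in all. At least 5 reads in each library were found for 68 of the 114. Without library A, 94 of the 116 genes would still have reached a value of 4 from library B alone, and without library B 86 would have, and 64 reached it in each library.

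**Figure D4:**
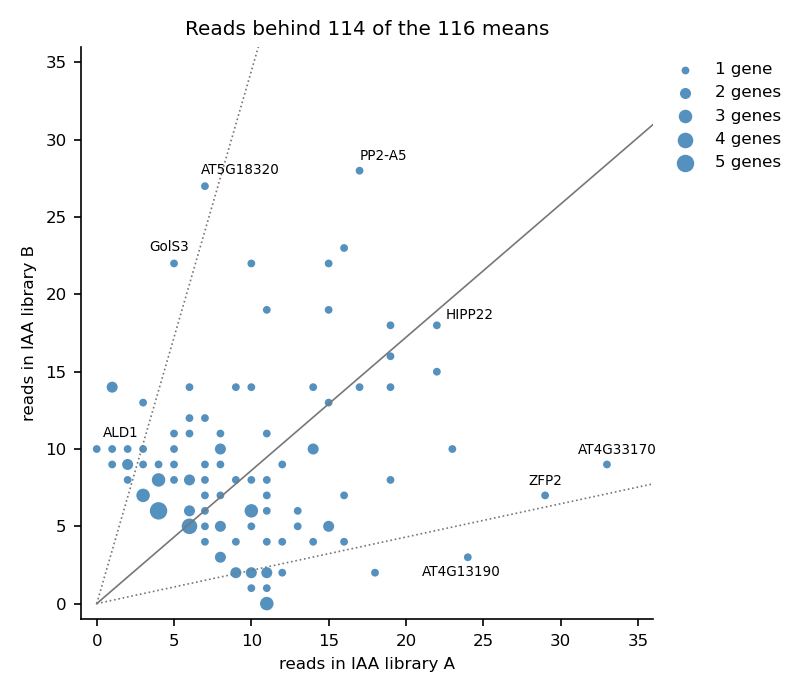
Reads in IAA library A and IAA library B for the 114 genes with 1 solution; each point is a pair of read numbers, its area the number of genes there, the solid line marks equal normalized reads (reads divided by the size factor) and the dotted lines a 4-fold difference in them. The 24 genes at or beyond the dotted lines make up 21.1% of the 114.

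At the edge of the rule, the genes on either side had the same 10 reads in all, divided differently between the libraries. AT2G21430, AT3G52520, AT3G62890, AT4G08210 and AT5G02950 were just inside at an IAA mean of 4.02, from 4 and 6 reads, and CIPK9, AT1G61480, WRKY43, CAX7 and OFP8 were just outside at 3.96, from 5 and 5 reads. On the side of the control value, 132 genes had a single control read and an IAA mean of at least 4. The highest of these were RTFL19 at 0.63 in control and 55.87 after IAA, the Aux/IAA repressor IAA5 at 0.59 and 48.3, PUCHI, an AP2/ERF factor of lateral root initiation, at 0.59 and 37.42, the bHLH protein AT5G65320 at 0.59 and 37.35, and IAA29 at 0.63 and 37.21. These exceeded every gene of the set.

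The opposite pattern, 0 after IAA with a control mean of at least 4, was found in 98 nuclear genes, 0.485%. Of the 14839 nuclear genes with about 10 or more reads after IAA, 138, or 0.93%, were at 0 in control. Without the genes left out by name they were 133. Of the 13172 with about 10 or more reads in control, 57, or 0.433%, were at 0 after IAA. About 10 reads stand for a lower mean after IAA than in control, so these shares are not at the same level. Depth and response cannot be told apart in them. By level, 3.11% of the 2731 nuclear genes with an IAA mean from 4 to 8 were at 0 in control, and 2.25% of the 2895 with a control mean from 4 to 8 were at 0 after IAA. From 8 to 16 the shares were 0.818% and 0.666%. From 16 to 32 they were 0.149% and 0.209%, which were 5 and 7 genes, too few to give an order. With 2 libraries taken per group, a control read was worth 1.18 or 1.27 normalized reads and an IAA read 0.733 or 0.851. By these values the control libraries were the shallower ones, and the same normalized level gave fewer reads in control than after IAA.

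**Figure D5:**
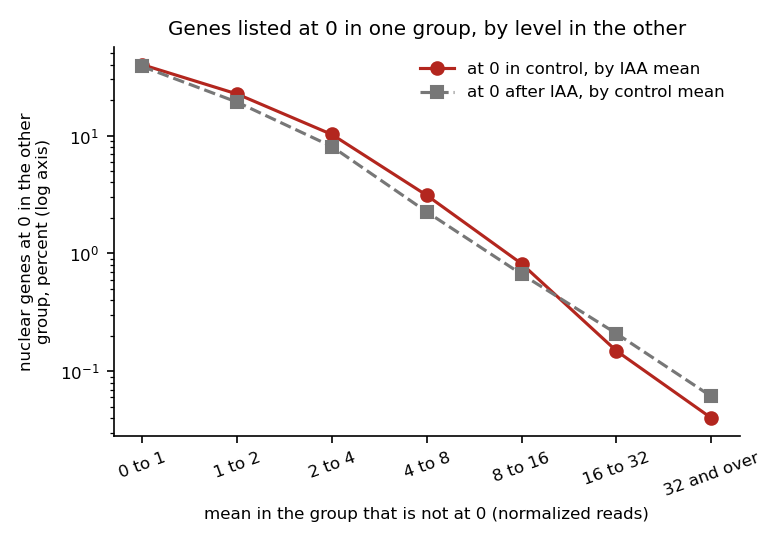
Percent of nuclear genes at 0 in 1 group (logarithmic axis) by their mean in the other group, in normalized reads; red circles are genes at 0 in control and grey squares genes at 0 after IAA. Both lines fall together from 39.9% and 38.5% for means under 1 to 0.0402% and 0.0613% for means of 32 and over, and the red line lies above the grey one in the bins up to 16.

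The genes were shorter than most, with a median gene length of 1901 bases (95% order-statistic interval 1726 to 2115), against 2202 for nuclear genes with an IAA mean from 4 to 8 and 2383 for all. A single exon across all annotated transcripts was found in 32 of them, 27.6%, against 16.2% at the same level and 13.9% of all nuclear genes. The genes of the mirrored pattern were alike in this, with a median of 1821.5 bases and 22.4% with a single exon. The single-exon genes came from all role groups, with 6 regulators, among them ERF2, ERF12, OFP16 and OFP4, and 5 of the pentatricopeptide and RNA group. By chromosome the share of nuclear genes in the set ran from 0.503% on chromosome 3 to 0.644% on chromosome 4.

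Some values cannot be assigned to 1 gene. AT3G60990 and AT5G48190, both annotated as DUF23 glycosyltransferase fragments, shared 654 stretches of 60 bases, 68.2% of those of AT3G60990, and were listed at the same 6.32 from the same 1 and 14 reads. The neighbours AT1G52430 and AT1G52450, of the ubiquitin hydrolase-related proteins, shared 1400 such stretches and were listed at 4.52 and 5.0. AT4G13190, a kinase listed at 10.07 from 24 and 3 reads, shared 492 bases on the same strand with the peptide gene CLE44, at 0 in control and 43.94 after IAA. AT3G19595, at 13.58 from 15 and 19 reads, lay wholly inside CPL5 on the same strand, and AT5G08480, a VQ motif protein at 7.57, lay for 99.4% of its length across SLG1 on the opposite strand, at 2.45 in control and 6.76 after IAA. In all, 31 of the 116 genes overlapped another annotated gene, 21 of them one with a value in the table, and whether strand was used in counting is not given in the sources used here. Repeats were otherwise rare: 102 genes held no stretch of 60 bases found elsewhere in the genome.

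All 16 root markers were listed, and so were all 4 shoot markers, while no seed storage gene of 4 was. Being listed thus did not separate root from shoot. The summed root markers were 234.3 in control and 148.0 after IAA. The IAA mean was below the control mean for 9 of them and above it for 7. The root hair marker COBL9 was at 20.85 in control and 0.43 after IAA, and EXP7 at 38.47 and 7.86. Of the epidermal patterning genes, GL2, of the hairless cell files, was at 8.52 and 8.18, WER at 9.11 and 2.01 and CPC at 4.31 and 2.32. In the endodermis CASP1 was at 59.82 and 12.32, MYB36 at 20.08 and 17.05 and SCR at 30.95 and 37.56. The stem cell marker WOX5 was at 3.67 and 15.3 and the root cap marker SMB at 2.45 and 14.75. BRN1 and VND7 were at 0 in control and at 2.8 and 0.37 after IAA. The 4 shoot markers summed to 55.12 in control and 7.55 after IAA, all of them above 0 in both groups, and of 5 pollen markers only TUA1 was listed, at 7.61 and 12.48. The part of these shifts in the values above was not tested. The 6 genes used in every cell were read in both groups, with control means of 9.2 and above.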

How the data were processed

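RNA-Seq was performed on Arabidopsis roots with and without IAA, in 3 libraries per group according to the labels. Per the study's methods, the authors mapped SOLiD reads to TAIR10 with SHRiMP, counted uniquely mapped reads with htseq-count and compared the groups with DESeq, whose version is not given in the sources used here. The signal values deposited by the authors are mean reads per group after division by size factors, rounded to 2 decimals. The remaining 4 columns hold the authors' own comparison (fold, log2 fold, p-value and adjusted p-value) and were not used. The table has 0 columns per library, so depth per library is unknown and no count model was fitted. The intervals given are for shares and medians over genes, and they hold no error of the read counts.

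The genes and the lists were chosen with earlier results of these data known. The named genes are those with the highest IAA means and those with a symbol or described role in the hand-made role groups, and the related genes and the added families were picked after values had been seen. IDs were paired with the RefSeq annotation of TAIR10.1 by locus tag (20192 matched, 23 nuclear IDs not), and coordinates and sequences are of that build. The 2 steps per column were fitted by a grid search over means under 8, and reads were read back with a tolerance of 0.0055. The procedure was tested on simulated data. Words were counted on both strands from 250 bases before to 50 bases after the start, with Wilson intervals of 95%. A floor of 3 reads was used for the ratios of the IAA means to the control group. The scripts ran in Python 3.11.15, with matplotlib 3.10.9 for the plots and numpy 2.4.6, scipy 1.17.1 and pandas 2.3.3 for the values. Alternatives changed the minimum mean, the control limit, the genes left out, the promoter window and the strand.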

Additional observations from a re-analysis of the deposited data

How the results depend on the processing

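The number of genes rested on the limits of the rule. It was 304 with a minimum IAA mean of 2, 31 with a minimum of 8, 248 with up to 1 control read allowed, and 69 with at least 5 reads in each of the 2 IAA libraries, an alternative chosen after seeing the data (in that count 1 gene with more than 1 division of reads had at least 5 in each under every division). It was 121 with the 5 left-out genes kept, 133 with a minimum of 10 reads in place of the mean, and 112 with reads required in both libraries, also chosen after seeing the data. The share of genes with TGTCTC was 10.3% in the 250 bases before the start alone, 8.62% on the forward strand alone, 6.45% for IAA means of at least 8, and 32.8% in the 1000 bases before the start, added after seeing the data, where 39.6% of all protein-coding genes held the word. With each library left out in turn, from the reads read back and also added after seeing the data, it ranged from 128 to 390. It was 164 without IAA library A, 128 without IAA library B, 390 without the control library of the smaller step and 303 without that of the larger step, since fewer control reads leave more genes at 0. Of 24 alternatives, 14 stayed within the limits set for a change and 10 moved beyond them. The 14 also count the mirrored rule, which gives a different set of 98 genes. They count the settings without an IAA library too, although 70 of the 164 genes without A and 42 of the 128 without B were other genes. For the number of genes, the limits concern the count and not which genes make it up. Neither the median IAA mean, the median gene length nor the protein-coding share was among the 10. All the genes were protein coding, so a limit to protein-coding genes could not move these values. The median IAA mean was not taken again at other minimum means. No paired analysis was possible because the measurements are group means and the libraries behind them carry no replicate number. Depth limits every statement: the 114 genes with 1 solution rest on 10 to 45 reads each, and a control value of 0 allows a control mean of up to 1.83.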
